A study of Mus musculus with 4 samples.

Results

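The members described here are the immunoglobulin variable (V) genes. All gene symbols that begin with Ighv (heavy chain), Igkv (kappa light chain) or Iglv (lambda light chain) were taken, which gave 348 of the 32285 genes listed: 185 Ighv, 160 Igkv and 3 Iglv genes. Their use was read in the unsorted tumour libraries, called whole, of 2 KPC lines. A droplet barcode passed with at least 500 UMIs, at least 250 genes and at most 20% mitochondrial UMIs, and was counted as a B-lineage barcode with at least 1 UMI of Cd79a, a signalling subunit of the B cell receptor. This left 178 of 536 passing barcodes in whole KPC-4545 and 133 of 1217 in whole KPC-3403, which are called Cd79a barcodes below. KPC lines come from a mouse model of pancreatic cancer. Cells of each line were implanted orthotopically, that is in the pancreas, in mice of the C57BL/6J strain. The treatment was none and the tumours were taken on day 13, for all 4 libraries alike. For each line there was also 1 enriched library, of cells sorted as negative for the leukocyte, endothelial, epithelial and erythroid antigens CD45, CD31, EPCAM and TER119. Age and sex are not given in the sources used here. The labels do not say whether the whole and enriched libraries came from separate animals. Each line had 1 whole library, so no difference between lines was tested, and a difference of lines cannot be told apart from one of animals or libraries.

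An antibody heavy chain is encoded by 1 V, 1 D and 1 J segment joined in the DNA of each developing B cell, and a light chain by 1 V and 1 J segment. The choice of V gene is kept by all descendants of that cell, so it labels the receptor a cell carries. A naive B cell makes modest amounts of receptor mRNA with Ighm and Ighd constant regions, whereas a plasma cell secretes antibody and devotes a large part of its mRNA to 1 heavy and 1 light chain. In mice most light chains are kappa.

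Many V genes are close in sequence, and the sequences below are those of the genes that led repeated pairs of high barcodes or the barcodes of few UMIs. For 6 genes the last 90 coding bases are given, which lie in the exon that encodes the variable region. They are from the transcripts of GENCODE M21 on GRCm38 (mm10). Ighv1-64 (chr12:115507545-115508031, minus strand) and Igkv12-41 (chr6:69858420-69858884, minus strand) led 2 high barcodes together, as did Ighv1-52 (chr12:115145487-115145919, minus strand) and Igkv4-55 (chr6:69607275-69607828, minus strand). Ighv1-82 (chr12:115952538-115953005, minus strand) and Igkv17-121 (chr6:68036812-68037318, plus strand) led the V UMIs of barcodes with at most 100 UMIs in whole KPC-3403. Capitals mark a match to TANTANTGT or TANTANTGC, where N is any base. The codons for the tyrosine, tyrosine and cysteine at the start of the junction fit this pattern. So would the stop codons TAA and TAG, and the search was not held to the reading frame.
Ighv1-64: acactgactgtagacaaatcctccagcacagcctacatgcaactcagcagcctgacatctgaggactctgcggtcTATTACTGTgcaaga
Ighv1-52: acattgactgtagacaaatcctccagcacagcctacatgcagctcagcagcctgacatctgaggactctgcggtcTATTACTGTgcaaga
Ighv1-82: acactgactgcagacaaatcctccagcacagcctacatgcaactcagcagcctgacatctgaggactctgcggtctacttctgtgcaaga
Igkv12-41: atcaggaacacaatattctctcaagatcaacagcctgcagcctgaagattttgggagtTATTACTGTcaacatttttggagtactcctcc
Igkv4-55: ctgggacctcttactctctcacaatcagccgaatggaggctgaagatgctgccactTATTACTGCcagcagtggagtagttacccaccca
Igkv17-121: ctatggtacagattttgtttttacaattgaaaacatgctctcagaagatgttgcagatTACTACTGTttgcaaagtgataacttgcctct

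Of 218 V genes with an annotated coding sequence, 166 (76.1%) held one of these letter patterns on the coding strand of their last 100 coding bases, and 2 held one on the other strand. Ighv1-82 held none in this window. Over 19437 other protein-coding genes, taken off chromosomes 6, 12 and 16, the share was 0.381%. Ighv1-64 and Ighv1-52 were 91.2% identical over their coding sequences, and Igkv12-41 and Igkv4-55 were 61.6% identical. All 348 members matched the annotation by gene ID, and 225 of them shared at least 1 stretch of 60 bases with another V gene. For 13 of them at least 50 of every 100 such stretches were shared, so reads of near-identical genes could have been split or lost in the authors' counting. The symbols Ighv5-8 and Ighv1-13 each stand for 2 gene IDs and were kept apart by ID.

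Lambda V genes are few, and a pair of them is close in sequence. Iglv1 (chr16:19085017-19085500, minus strand) and Iglv2 (chr16:19260401-19260859, minus strand) differed at 11 of 351 coding bases, an identity of 96.9%, and are shown over their last 300 coding bases with the 8 bases that differ there in capitals.
Iglv1: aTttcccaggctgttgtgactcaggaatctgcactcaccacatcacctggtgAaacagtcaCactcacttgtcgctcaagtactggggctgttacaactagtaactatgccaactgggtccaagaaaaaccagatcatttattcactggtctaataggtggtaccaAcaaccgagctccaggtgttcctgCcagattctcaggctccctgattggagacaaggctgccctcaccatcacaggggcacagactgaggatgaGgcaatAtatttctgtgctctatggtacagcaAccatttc
Iglv2: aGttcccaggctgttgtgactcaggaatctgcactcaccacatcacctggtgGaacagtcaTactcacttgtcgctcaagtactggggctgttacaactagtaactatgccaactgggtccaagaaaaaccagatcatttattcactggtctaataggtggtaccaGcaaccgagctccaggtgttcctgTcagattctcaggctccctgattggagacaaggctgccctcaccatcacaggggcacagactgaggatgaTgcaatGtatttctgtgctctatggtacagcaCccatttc
The pair shared 55 of the 332 stretches of 60 bases of Iglv1, while Iglv3, 57.6% identical to Iglv1, shared none with it.

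The Cd79a barcodes had similar depth in the 2 whole libraries, with a median of 3178.5 UMIs in KPC-4545 and 3106 in KPC-3403. They made up 33.2% of passing barcodes (95% exact Clopper-Pearson interval 29.2 to 37.4%) and 10.9% (9.23 to 12.8%). Intervals here cover counting error only. All 12 B cell marker genes listed were detected in both libraries, but not in all barcodes. Cd79b was in 86.0% and 79.7% of Cd79a barcodes and the B cell antigen gene Ms4a1 in 78.7% and 67.7%. Other markers were in fewer barcodes: Blk in 44.9% and 44.4%, Fcer2a in 48.3% and 31.6%, and Cd22 in 39.9% and 33.1%. Pax5 was in 37.1% and 36.1%, and Cr2 in 24.2% and 18.0%. Apart from Cd79a, H2-Aa was the most frequent, in 98.3% and 91.7%. The precursor genes Rag1, Rag2, Vpreb1, Igll1 and Dntt had 0 UMIs in the Cd79a barcodes of both libraries. For each gene the exact interval then reaches 2.05% and 2.74% of Cd79a barcodes with a UMI, which does not limit the cells that express it below the depth of detection. T cell genes were found in 2 and 5 Cd79a barcodes. At least 1 of 4 epithelial genes was found in 9 of 178 Cd79a barcodes of KPC-4545 and in 30 of 133 of KPC-3403, with summed UMIs of 9 and 96. The part of such other RNA in the differences between lines was not tested, and no doublets were removed.

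Barcode sequences were shared between libraries beyond the level of most pairs. Whole KPC-3403 and enriched KPC-4545 had 139 passing barcodes in common, against 6 to 11 for the other pairs of libraries. Of the 133 Cd79a barcodes of whole KPC-3403, 4 also had at least 500 UMIs in enriched KPC-4545 and 1 passed there. Of the 4, 3 are among the barcodes of very high V counts described below, with 792, 580 and 551 UMIs in enriched KPC-4545. The whole libraries had 6 passing barcodes in common, and none of them was a Cd79a barcode in either. Results without the barcodes that had 500 UMIs in another library, a set left out after the data had been seen, were 122 V genes detected in KPC-3403 in place of 127 and a lambda share of 9.65% in place of 9.24%. The difference in share of Igkv2-137 (KPC-4545 minus KPC-3403) was -1.59 percentage points in place of -3.14, and that of Ighv1-64 was 0.76 in place of -0.57.

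V UMIs were spread over barcodes very unequally in KPC-3403 and more evenly in KPC-4545. The Cd79a barcodes held 2965 V UMIs in KPC-4545 and 65033 in KPC-3403, or 0.482% and 11.0% of all their UMIs. The median Cd79a barcode had 14 V UMIs in KPC-4545 and 16 in KPC-3403, and the middle 50% of barcodes ran from 8 to 21 and from 9 to 25. In KPC-3403, 9 barcodes with 100 or more V UMIs held 62834 UMIs, or 96.6% of the total, with 1043 V UMIs in the lowest of them and 12885 in the highest. In KPC-4545, 1 barcode passed that level, with 110 V UMIs, and the 9 highest together held 17.5% of its V UMIs. Below the level the highest barcode had 74 V UMIs in each library. A V UMI was found in 175 of 178 and 128 of 133 Cd79a barcodes.

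**Figure D1:**
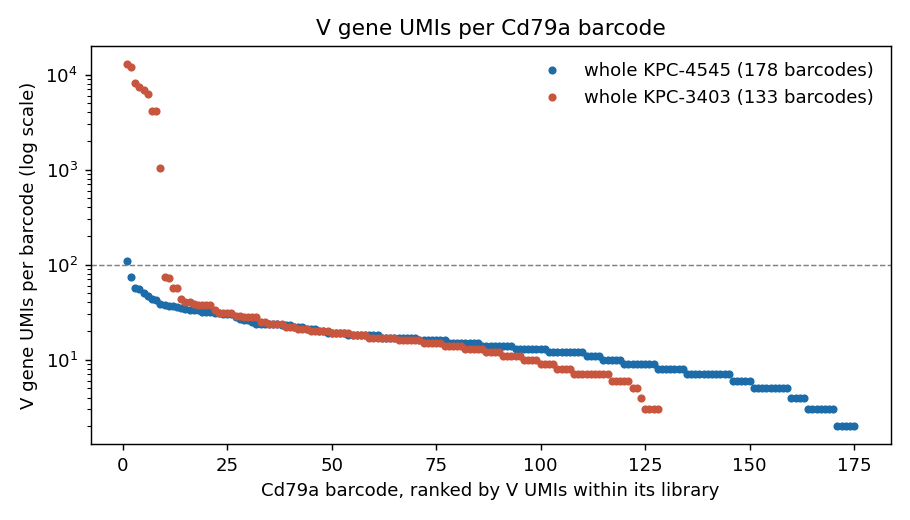
V gene UMIs of each Cd79a barcode with at least 1 V UMI (log axis) by rank within its library, with the level of 100 V UMIs as a dashed line. In whole KPC-3403, 9 barcodes sit between 1043 and 12885, and the other barcodes of both libraries reach 74, apart from 1 at 110 in whole KPC-4545.

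Each of the 9 high barcodes of whole KPC-3403 was led by 1 heavy and 1 light V gene. The leading Ighv gene held at least 98.6% of the Ighv UMIs in each of them. The highest barcode had 2380 UMIs of Ighv1-64 and 10168 of Igkv12-41, and its V UMIs made up 46.5% of its 27701 UMIs. The next had 2458 UMIs of Ighv7-1 and 9517 of Igkv12-46, with V genes at 58.8% of its UMIs. Then came Ighv1-53 (2125 UMIs) with Igkv4-72 (5851), and Ighv1-55 (1609) with the same kappa gene (4896). Ighv1-81 (2365) was found with Igkv1-135 (3779). In the lowest of the 9, 106 UMIs of Ighv1-85 stood with 930 of the lambda gene Iglv1 and only 6 of its leading kappa gene.

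Among the 9, the repeated V gene pairs were Ighv1-64 with Igkv12-41 and Ighv1-52 with Igkv4-55, whose ends are printed above. The second Ighv1-64 barcode had 572 UMIs of Ighv1-64 and 6118 of Igkv12-41. Its leading heavy constant gene was Ighg2b (2954 UMIs), where that of the first was Ighg2c (1679 UMIs). Both also held the kappa gene Igkv18-36, at 206 and 5 UMIs, although it is 63.7% identical to Igkv12-41 and shares no stretch of 60 bases with it. The Ighv1-52 barcodes were alike, with 964 and 1029 UMIs of Ighv1-52 and 3014 and 3022 of Igkv4-55, and both were led by Ighg1. Their next kappa gene was Igkv4-70, at 16 and 11 UMIs, which is 93.8% identical to Igkv4-55 and shares 79 of its 320 stretches of 60 bases. A shared pair of V genes does not by itself show descent from 1 cell, because the junctions were not read here.

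The same 9 barcodes, which held 13261 to 27701 UMIs each, also had UMIs of plasma cell genes. Jchain, which joins secreted IgM and IgA, ranged from 43 to 1487 UMIs, with the highest value in the Ighv7-1 barcode, which was led by Ighm (885 UMIs). The leading heavy constant gene was an IgG gene in the other 8: Ighg1 in 4, Ighg2c in 2, and Ighg2b and Ighg3 in 1 each. Mzb1, a chaperone of antibody assembly, had 13 to 255 UMIs and Xbp1, a transcription factor of plasma cells, 10 to 130. The plasma cell surface gene Sdc1 had only 0 to 4 UMIs. Mzb1 was also found in 65.2% and 66.2% of all Cd79a barcodes of KPC-4545 and KPC-3403, with up to 12 UMIs in KPC-4545. Over all 133 Cd79a barcodes of KPC-3403, the plasma cell genes Prdm1 (5 UMIs) and Tnfrsf17 (3 UMIs) were in only 3 barcodes each. Derl3 was in 10, Eaf2 in 13 and Irf4 in 36. The KPC-4545 barcode with 110 V UMIs, with 3399 UMIs in all, had 16 UMIs of Ighv1-81, 85 of Igkv9-120, 11 of Ighm, 6 of Ms4a1 and 0 of Jchain. Iglv1 was found in all 9 high barcodes of KPC-3403, with 1 to 150 UMIs in 6 of them, 180 in the second Ighv1-64 barcode, 903 in the Ighv1-55 barcode that was led by a kappa gene, and 930 in the Ighv1-85 barcode.

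**Figure D2:**
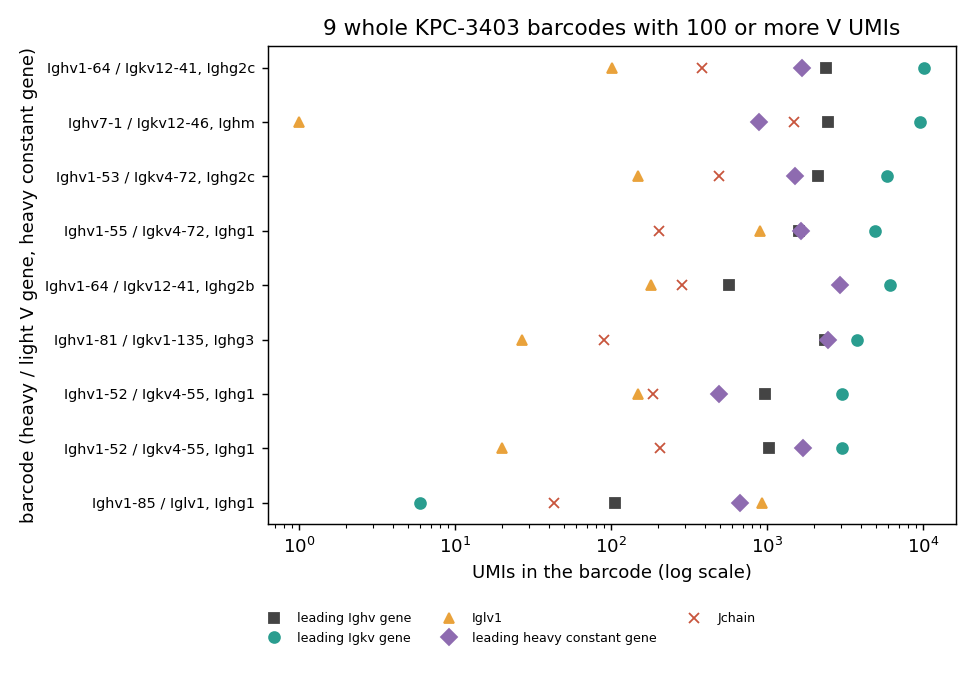
UMIs (log axis) of the leading Ighv gene, the leading Igkv gene, Iglv1, the leading heavy constant gene and Jchain in each of the 9 whole KPC-3403 barcodes with 100 or more V UMIs, ordered by V UMIs. Kappa leads in 8 of them, and the lowest is led by Iglv1 at 930 UMIs.

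V UMIs outside B-lineage barcodes were far more frequent in whole KPC-3403. Among passing barcodes with a T cell gene and no Cd79a, 1 of 144 (0.694%, interval 0.0176 to 3.81%) had a V UMI in KPC-4545 and 40 of 249 (16.1%, 11.7 to 21.2%) in KPC-3403, with median depths of 4074.5 and 4300 UMIs. After thinning each barcode to 1000 UMIs, which left out 4 and 15 shallower barcodes, 0 of 140 (up to 2.60%) and 19 of 234 (8.12%) had one. Of passing barcodes with neither Cd79a nor a T cell gene, 4 of 214 (1.87%, 0.512 to 4.72%) and 173 of 835 (20.7%, 18.0 to 23.6%) had a V UMI. After the same thinning 3 of 189 (1.59%) and 42 of 709 (5.92%) did. Barcodes of at most 100 UMIs, which mostly hold no cell, had a V UMI in 0.288% of cases in KPC-4545 and in 5.85% in KPC-3403. In Cd79a barcodes the shares were 98.3% and 96.2%, far above that background. The part of this background in the gene shares below was not tested.

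The V RNA outside cells in whole KPC-3403 had another composition than the Cd79a barcodes. Igkv17-121 led it with 8275 of the 15099 V UMIs (54.8%) in barcodes of at most 100 UMIs, spread over 6068 barcodes with at most 15 in any of them. In the Cd79a barcodes of the same library Igkv17-121 had 22 UMIs in 17 barcodes, at most 4 in any, and led none. Ighv1-82 was next with 2109 UMIs (14.0%), against 9 UMIs in the Cd79a barcodes, of which it led 2. Among all barcodes of the library the highest value was 15 UMIs for Igkv17-121 and 10 for Ighv1-82. The following genes, Igkv12-41 (1406 UMIs), Igkv4-72 (727) and Igkv1-135 (615), each led at least 1 of the 9 high barcodes. The 2 leading genes also led the V UMIs of T cell gene barcodes, with 29 and 13 of 58 UMIs. In whole KPC-4545 Igkv17-121 had 23 of 711 V UMIs in barcodes of at most 100 UMIs. Igkv12-41 (58 UMIs) and Igkv4-72 (57) led there. The barcode sequences of the 9 high KPC-3403 barcodes held 205 V UMIs in whole KPC-4545. With at most 0.332% of their whole KPC-3403 UMIs there, they fall among these barcodes of few UMIs. The cause was not tested. Igkv17-121 and Ighv1-82 were singled out after their values had been seen.

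**Figure D3:**
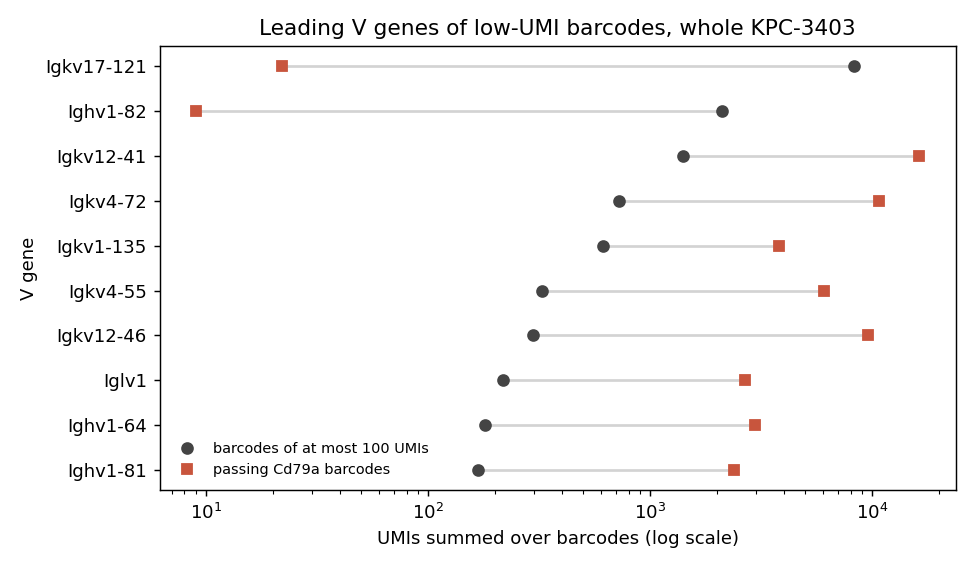
UMIs (log axis) of the 10 leading V genes of low-UMI barcodes in whole KPC-3403, summed over barcodes of at most 100 UMIs (circles) and over passing Cd79a barcodes (squares). Igkv17-121 (8275 against 22) and Ighv1-82 (2109 against 9) are the 2 genes with more UMIs outside, and the other 8 have more inside.

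By chain, kappa genes held most V UMIs in both lines, with 2308 (77.8%) in KPC-4545 and 48315 (74.3%) in KPC-3403. Ighv genes held 446 (15.0%) and 13914 (21.4%), and Iglv genes 211 (7.12%) and 2804 (4.31%). These shares followed the high barcodes: without them the KPC-3403 shares were 12.1% Ighv, 74.1% Igkv and 13.8% Iglv. Counted by barcode, Ighv UMIs were found in 80.3% (interval 73.7 to 85.9%) and 69.2% (60.6 to 76.9%) of Cd79a barcodes, Igkv UMIs in 95.5% and 93.2%, and Iglv UMIs in 14.6% (9.77 to 20.7%) and 25.6% (18.4 to 33.8%). Without the high barcodes the Iglv share in KPC-3403 was 20.2% (13.5 to 28.3%). These intervals overlap between the lines.

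A barcode was assigned to a V gene of a chain when its leading gene had at least 2 UMIs and at least 2 times the UMIs of the next. This gave a heavy gene to 99 and 65 barcodes and a light gene to 158 and 119, in KPC-4545 and KPC-3403. Of the light-assigned barcodes, 8 (5.06%, interval 2.21 to 9.73%) and 11 (9.24%, 4.71 to 15.9%) were lambda. Iglv1 led 5 (3.16%) and 9 (7.56%) of them, Iglv3 led 2 and 1, and Iglv2 led 1 and 1. The Iglv1 UMIs numbered 118 in KPC-4545, with 55 in the highest barcode, and 2679 in KPC-3403, with 930 in the highest. The Iglv2 UMIs numbered 58 in both, of which 52 were in 1 barcode in KPC-4545. Iglv3 had few UMIs in many barcodes: 35 UMIs over 18 barcodes and 67 over 19. Kappa and lambda genes with at least 2 UMIs each stood together in 5 barcodes (2.81%, 0.918 to 6.43%) of KPC-4545 and 16 (12.0%, 7.04 to 18.8%) of KPC-3403, or in 8 (6.45%, 2.83 to 12.3%) of KPC-3403 without the high barcodes. Lambda constant genes were far more frequent than lambda V genes. Iglc1 was in 32.6% and 27.1% of Cd79a barcodes, Iglc2 in 71.3% and 70.7%, and Iglc3 in 84.8% and 69.2%. The kappa constant gene Igkc was in 90.4% and 86.5%. The cause of this difference was not tested.

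Heavy chain use was spread over many genes, with Ighv1-26 the most used on average. It led 10 of 99 heavy-assigned barcodes (10.1%, interval 4.95 to 17.8%) in KPC-4545 and 2 of 65 (3.08%, 0.375 to 10.7%) in KPC-3403, on 32 and 10 UMIs. Ighv3-6 led 7 (7.07%) and 2 (3.08%), and Ighv1-82 led 6 (6.06%) and 2 (3.08%). Ighv7-3 went the other way: it had 0 UMIs in KPC-4545, where its exact interval reaches 3.66% of heavy-assigned barcodes, and led 4 (6.15%, 1.70 to 15.0%) in KPC-3403 on 29 UMIs. Ighv1-64, Ighv1-81 and Ighv9-3 each led 3 barcodes (4.62%) in KPC-3403, against 4, 3 and 2 in KPC-4545. Ighv1-80 led 3 in KPC-4545 and 2 in KPC-3403. The intervals of the lines overlapped for each of these 8 genes. The direction of Ighv1-64, Ighv1-80 and Ighv9-3 turned under at least 1 other setting, and that of the other 5 under none.

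Igkv10-96 had the highest mean share of the kappa genes over both lines, with 14 of 158 light-assigned barcodes (8.86%, interval 4.93 to 14.4%) in KPC-4545 and 5 of 119 (4.20%, 1.38 to 9.53%) in KPC-3403, on 176 and 66 UMIs. Igkv17-127 (6 and 2 barcodes) and Igkv3-4 (4 and 1) also had larger shares in KPC-4545. The shares of Igkv2-137 (3 and 6 barcodes, 1.90% and 5.04%), Igkv12-46 (2 and 5) and Igkv6-32 (5 and 7) were larger in KPC-3403. Among the 8 most used kappa genes, Igkv1-110 led 7 barcodes in each line, Igkv1-117 led 7 and 5, Igkv6-17 and Igkv9-120 led 7 and 4 each, and Igkv3-2 led 4 and 5. Igkv12-46 shows how UMIs and barcodes part: 9517 of its 9577 UMIs in KPC-3403 were in 1 barcode. The intervals overlapped for all 22 named genes and for all 348 members, and none of the differences was tested. Only 120 of the 348 led a barcode in either line. For the others the overlap was fixed in advance, so it says nothing about their use. Closely related genes limit these names, because Igkv17-127 is 97.5% identical to Igkv17-121, and Igkv1-110 is 97.2% identical to Igkv1-117.

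**Figure D4:**
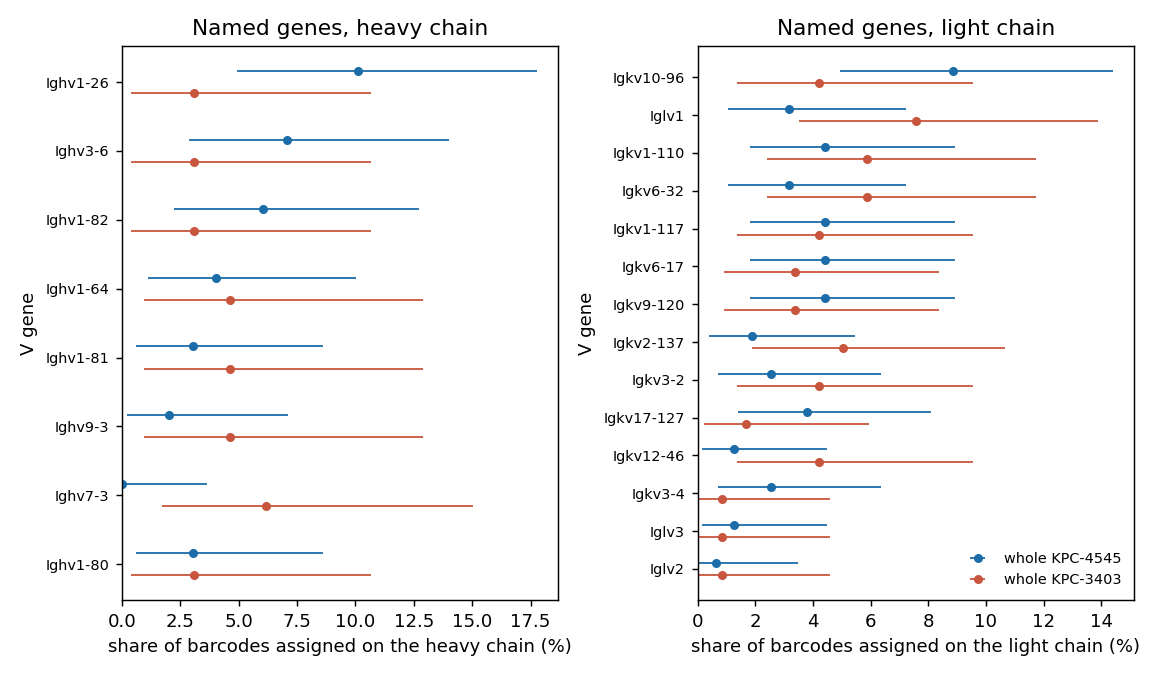
Share of assigned barcodes (percent, with 95% exact intervals) led by each of the 22 named V genes in whole KPC-4545 and whole KPC-3403, heavy genes on the left and light genes on the right. The widest gaps are those of Ighv1-26 (10.1% and 3.08%) and Ighv7-3 (0 and 6.15%), and all intervals overlap between the lines.

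Ighv and Igkv genes were grouped into subgroups by the number before the hyphen of their symbol, which follows sequence relatedness. Each Iglv gene was counted as its own subgroup, although Iglv1 and Iglv2 are 96.9% identical. Ighv1, with 93 of the 185 Ighv genes listed (50.3%), led 65 heavy-assigned barcodes (65.7%, interval 55.4 to 74.9%) in KPC-4545 and 33 (50.8%, 38.1 to 63.4%) in KPC-3403. Ighv9 led 4 (4.04%, 1.11 to 10.0%) and 9 (13.8%, 6.53 to 24.7%), and Ighv14 led 4 (4.04%) and 6 (9.23%), each with only 4 genes listed. Ighv7 led none of 99 and 5 of 65 (7.69%, 2.54 to 17.0%). Ighv5, the second largest subgroup with 22 genes, led 8 (8.08%) and 2 (3.08%). Of 16 Ighv subgroups, 4 led no barcode in either line: Ighv10, Ighv11, Ighv12 and Ighv16.

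Igkv6 and Igkv1 led the most light-assigned barcodes in both lines. Igkv6 (9 genes) led 14.6% and 14.3% of light-assigned barcodes, and Igkv1 (13 genes) led 13.3% and 15.1%. Igkv4, the largest subgroup with 33 genes and 20.2% of the light genes listed, led 10.8% and 9.24%. Igkv8 led 3.80% (1.41 to 8.08%) and 10.1% (5.32 to 16.9%), and Igkv17 led 6.33% (3.08 to 11.3%) and 1.68% (0.204 to 5.94%). Igkv13, with 18 genes, led 4.43% and 0.840%. Igkv10, with 3 genes, led 8.86% and 5.88%. The intervals of the lines overlapped for all 39 subgroups. That was fixed in advance for the 4 Ighv and 4 of 20 Igkv subgroups that led no barcode in either line.

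Many members had no UMI in the Cd79a barcodes of the whole libraries. At least 1 UMI was found there for 132 V genes in KPC-4545 and 127 in KPC-3403, 93 of them in both, and 182 of 348 had none in either. Of 130 members annotated as pseudogenes, 8 and 5 had a UMI, with 35 and 11 UMIs in all, and none led a barcode. A barcode was led by 98 genes in KPC-4545 and 83 in KPC-3403. The 61 genes that led in both lines were 62.2% of the first set and 73.5% of the second, and no gene that led in 1 line alone led more than 4 barcodes. The 5 most used heavy genes led 31.3% (22.4 to 41.4%) and 24.6% (14.8 to 36.9%) of heavy-assigned barcodes. The 5 most used light genes led 26.6% (19.9 to 34.2%) and 28.6% (20.7 to 37.6%) of light-assigned barcodes.

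Heavy and light genes were both assigned in 89 barcodes of KPC-4545, with 86 distinct pairs, and in 59 of KPC-3403, with 56. In each line 3 pairs occurred in 2 barcodes each. In KPC-4545 they were Ighv1-12 with Igkv12-44, Ighv3-6 with Igkv10-96, and Ighv5-4 with Igkv13-85, and the highest V count of any barcode there was 110. In KPC-3403 they were Ighv1-39 with Igkv1-110 and the pairs of high barcodes described above, Ighv1-52 with Igkv4-55 and Ighv1-64 with Igkv12-41. The pairs found in both lines were 4: Ighv1-26 with Igkv6-17, Ighv1-26 with Igkv8-30, Ighv1-9 with Igkv3-2, and Ighv6-3 with Igkv5-39.

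V genes from both ends of the loci were used. The 185 Ighv genes lie 143 to 2580 kb from the nearest heavy J gene on chromosome 12, and were split by distance into near (62 genes), middle (61) and far (62) sets. The near set led 27.3% (18.8 to 37.1%) of heavy-assigned barcodes in KPC-4545 and 38.5% (26.7 to 51.4%) in KPC-3403, and the far set 43.4% (33.5 to 53.8%) and 36.9% (25.3 to 49.8%). The 160 Igkv genes lie 18.4 to 3166 kb from the kappa J genes on chromosome 6. Their middle set (53 genes) led only 17.3% (11.6 to 24.4%) and 13.0% (7.27 to 20.8%) of kappa barcodes, while the near set (54) led 40.0% and 45.4% and the far set (53) 42.7% and 41.7%. Igkv genes in the orientation opposite to the J genes, which join by inversion, are 53.1% of those listed and led 49.3% (41.1 to 57.6%) and 51.9% (42.0 to 61.6%) of kappa barcodes.

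**Figure D5:**
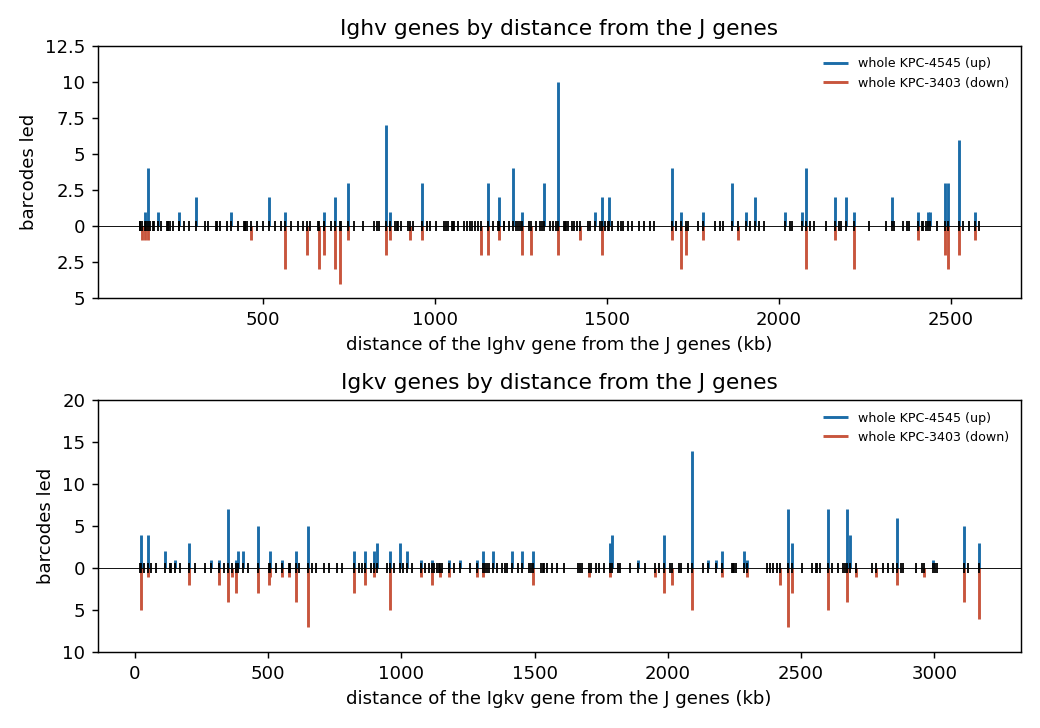
Barcodes led by each Ighv gene (top) and Igkv gene (bottom) by its distance in kb from the J genes, with whole KPC-4545 upward and whole KPC-3403 downward. Short black ticks mark all listed genes, and the kappa genes in the middle of the locus lead 17.3% and 13.0% of barcodes.

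Summed over Cd79a barcodes, V genes were compared between the lines against all genes. UMI sums were scaled to CPM, that is to the total of all UMIs in these barcodes, and genes with at least 10 UMIs in both libraries together were compared by the log2 ratio with 0.5 UMIs added. Of all 7346 such genes, 8.82% were at least 2-fold higher in KPC-4545 and 7.51% at least 2-fold higher in KPC-3403. Of the 99 V genes, 34 (34.3%) and 33 (33.3%) were, and these counts describe 2 libraries with no replicate check. Of the 34 and 33, 11 and 13 had 0 UMIs in the other library, so that the minimum of 10 UMIs fixed their ratio past 2-fold, and the counts are given as a description only. The median log2 ratio of KPC-4545 over KPC-3403 was 0.07 over the V genes and 0.18 over all genes. Scaling without immunoglobulin genes moved the median of all genes to -0.04 and gave 27 and 39 V genes, against 4.21% and 10.5% of all genes. With a minimum of 50 UMIs, 8 and 18 of 38 V genes passed 2-fold, against 3.47% and 4.13% of all genes, and with a minimum of 1 UMI 68 and 54 of 166, against 15.3% and 22.3%. Without the high barcodes 90 V genes were compared, and 26 (28.9%) and 25 (27.8%) passed 2-fold, against 4.37% and 8.25% of 7066 genes. A sum that rests on a few barcodes moves with each of them.

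The largest of these ratios belonged to genes that led the high barcodes. Ighv1-53 had 0 UMIs in KPC-4545 and 2131 in KPC-3403, at least 740-fold higher against a floor of 3 UMIs in the library at 0, and 2125 of the 2131 were in 1 barcode. Igkv4-72 had 12 and 10750 UMIs, a log2 ratio of -9.81, and Igkv12-41 had 36 and 16292, a log2 ratio of -8.86. Igkv18-36, which led no barcode, had 0 and 211 UMIs, at least 73.2-fold higher in KPC-3403, and 206 of the 211 were in 1 high barcode. In the other direction, Igkv13-85 had 48 and 0 UMIs, at least 15.4-fold higher in KPC-4545. In all, 11 V genes with 10 to 48 UMIs in KPC-4545 had none in KPC-3403 (11 of 99, against 0.191% of all 7346 genes), and 13 with 13 to 2131 UMIs in KPC-3403 had none in KPC-4545 (13 of 99, against 0.912%). The 14 and 67 genes behind the shares of all genes include these V genes. Each such gene entered the comparison only through the line where it had UMIs, so the counts are a description only.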

How the data were processed

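Single-cell RNA was measured with 10x 5' chemistry in 4 libraries. The deposited files hold UMI counts per gene and barcode, not normalized. The build was mm10 and the counter Cell Ranger 6.1.1, as the submitters' processing notes give them. The software line of the matrices reads Cell Ranger 4, per the file headers. Barcodes are not limited to cells, so the thresholds given above were applied, and depth was taken as UMIs per barcode. The members and lists were chosen with earlier results of these data known. With 1 library per line no test was run, and shares have exact Clopper-Pearson 95% intervals. Named genes are the 8 Ighv and 8 Igkv genes with the highest mean share, all Iglv genes, and per chain and direction the 3 largest share differences among genes leading at least 5 barcodes. The genes of high barcodes, low-UMI barcodes, repeated pairs, subgroups and fold ratios fall outside that rule and were chosen after their values were seen. Alternatives varied the thresholds, the assignment, the scaling (edgeR 4.0.16 for TMM) and depth. The fold and assignment steps were tested on simulated data. The simulated assignment had an even V background and no related genes, so the uneven background and related genes found here were not covered. Python 3.11.15, scipy 1.17.1 and R 4.3.3 were used, with GENCODE M21.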

Additional observations from a re-analysis of the deposited data

Results flagged for a closer look

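The enriched libraries, sorted against leukocytes, do not enter the comparison of lines. The 19 Cd79a barcodes of enriched KPC-3403 still held 5069 V UMIs, while the 4 of enriched KPC-4545 held 0. Of the 5069, 2579 were in a barcode led by Igkv4-70 (2392 UMIs), Ighv1-50 (38) and Ighm (732), and 2402 in a barcode led by Igkv17-121 (1677), Ighv1-78 (378) and Ighg2c (625). Iglv1 had 147 and 312 UMIs in them.

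The enriched KPC-4545 library held V UMIs in the barcode sequences of the 9 high barcodes of whole KPC-3403. There were 1724 of them, 74.6% of the 2310 V UMIs of that library, and the leading light V gene was the one of whole KPC-3403 in 9 of 9. These barcodes had a median of 2.51% of their whole KPC-3403 UMIs there (1.75 to 2.86%). The same 9 sequences held 205 of the 3710 V UMIs (5.53%) of whole KPC-4545 and 328 of the 5841 V UMIs (5.62%) of enriched KPC-3403, again with the same leading light gene in 9 of 9. None of the 9 was a passing Cd79a barcode in whole KPC-4545. The sharing was not particular to the 9. The other 124 Cd79a barcodes of whole KPC-3403 had a median of 2.47% of their UMIs in enriched KPC-4545 (0.605 to 15.3%). They held 60 V UMIs there, and 33 of the 38 that could be compared had the same leading light gene. The cause of the sharing was not tested.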

How the results depend on the processing

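Of 146 values recomputed for the comparisons, 135 stayed within the interval of the reported value (for counts of genes, within 1.5 times), and the other 11 are given here. The cause was not tested, except where fewer genes or barcodes entered by construction. The Cd79a share was 45.1% in KPC-4545 and 13.4% in KPC-3403 without barcodes with a T cell gene, which lowers the denominator, and 13.7% in KPC-3403 at 1000 UMIs and 500 genes. Without barcodes of 100 or more V UMIs the Ighv and Iglv shares of V UMIs in KPC-3403 were 12.1% and 13.8%. With a minimum of 1 UMI, 68 and 54 of 166 V genes passed 2-fold (higher in KPC-4545 and in KPC-3403), against 15.3% and 22.3% of all genes, and with 50 UMIs 8 and 18 of 38, against 3.47% and 4.13%. Thinned to 1000 UMIs, T cell gene barcodes with a V UMI were 0% and 8.12%. Of 22 named genes, 5 changed the sign of their share difference under some setting: Ighv1-64, Ighv1-80, Ighv9-3, Igkv1-117 and Iglv3. Leaving out barcodes with 500 UMIs in another library, added after the data were seen, gave a Cd79a share of 12.0% and an Ighv1 share of 49.2% in KPC-3403. No replicate could be left out, since each line had 1 whole library. No paired analysis was possible because each group holds 1 library and no result comes from a test.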
